A study of Mus musculus with 10 samples.

Results

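The 7 genes Hdac1, Hdac2, Hdac3 and Hdac8 (class I), Hdac6 and Hdac10 (class IIb) and Hdac11 (class IV) encode zinc-dependent histone deacetylases, and they were matched by symbol among the 45706 genes of the deposited table. All 7 were found, and all 7 were among the 12350 genes that passed the filter on low values, 1 CPM or more in 5 or more libraries. CPM is a gene's number of reads scaled to the same total in every library. Poly(A)-selected, strand-specific RNA sequencing was done on the left ventricle of mice with transverse aortic constriction (TAC), surgery that narrows the aorta and so raises the pressure the ventricle works against. One group was TAC with osimertinib (5 libraries) and the other TAC with placebo, labelled vehicle (5 libraries), so both groups carried the pressure load. Osimertinib inhibits the epidermal growth factor receptor tyrosine kinase and is used against lung cancer. The sources used here give no dose, duration, strain, age or sex. Nor do they state that each library came from its own animal, so the p-values rest on a spread between libraries that may be technical. The series title names repression that depends on histone deacetylases, and vorinostat, an inhibitor of these enzymes.

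Histone deacetylases remove acetyl groups from lysines. HDAC1 and HDAC2 are close paralogs that work as catalytic subunits of the Sin3, NuRD, CoREST and MiDAC corepressor complexes, HDAC3 works within the NCoR complex, and HDAC8 deacetylates the cohesin subunit SMC3. HDAC6 is mostly cytoplasmic, with alpha-tubulin, cortactin and HSP90 among its substrates, HDAC10 deacetylates polyamines, and HDAC11 removes fatty acyl groups from proteins such as SHMT2. In the mouse heart, loss of Hdac1 and Hdac2 together from cardiomyocytes causes lethal cardiomyopathy, and deacetylase inhibitors blunt hypertrophy under pressure load.

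Each value is given on 2 scales. The deposited CPM carry no factor between libraries. The rescaled CPM divide each library by a factor, the median over tested genes of its ratio to the genes' geometric means. The factors ran from 0.980 to 1.222 in osimertinib libraries and from 0.926 to 1.344 in placebo libraries 1 to 4, and that of placebo library 5 was 0.455. Placebo library 5 stood apart from the other 9 in its composition as well. Mitochondrial genes and their chromosome 1 copies took 83.0% of its reads, against 45.0% to 60.1% in osimertinib libraries and 51.2% to 63.7% in the other placebo libraries. It held 68.0 CPM of Xist, the RNA of the inactive X chromosome, against at most 0.166 CPM in any other library, and 4 Y-linked genes (Ddx3y, Uty, Kdm5d and Eif2s3y) summed to 0 CPM in it, against 65.9 to 138 CPM in the other 9. Since Hdac6 and Hdac8 are X-linked, and since the scale of that library moves every deposited placebo mean, results are also given without it. The median log2 fold change of all tested genes, osimertinib minus placebo, was 0.27 in deposited CPM and 0.01 in rescaled CPM, and without placebo library 5 it was 0.05 in deposited and 0.02 in rescaled CPM.

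In brief, Hdac11 was called higher with osimertinib on both scales. Its call held in 10 of 20 alternative fits in deposited CPM and in 13 of 20 in rescaled CPM. The class IIb pair, Hdac6 and Hdac10, was called lower on the rescaled scale only. The deposited log2 fold changes of the pair were also below 0 but had wide errors, -0.21 ± 0.31 for Hdac6 and -0.32 ± 0.31 for Hdac10 (SE). None of the class I genes passed the test on either scale. In deposited CPM 1 of 7 members was called higher and 0 lower, where 6.62% of all tested genes were called higher and 0.13% lower. In rescaled CPM 1 of 7 was called higher and 2 lower, where 10.4% of tested genes were called higher and 10.5% lower. Without placebo library 5 the same 3 members were called in rescaled CPM, where 8.35% of tested genes were called higher and 9.7% lower. In deposited CPM without that library 1 member, Hdac11, was called higher and 0 lower. In that fit 618 of 12325 tested genes were called higher and 257 lower. The members' median log2 fold change was 0.29 deposited and 0.01 rescaled, beside 0.27 and 0.01 over all tested genes.

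Promoter sequence in RefSeq was present for 4 of the 7 members. The stretches just before the start sites of Hdac11 and Hdac6, which moved in opposite directions on the rescaled scale, are shown beside that of the class I gene Hdac2 (GRCm38.p6, each read 5′ to 3′ on the gene's own strand), with matches to GGGCGG or CCAAT, on either strand, in capitals.
Hdac11, chr6:91156565-91156664, plus strand: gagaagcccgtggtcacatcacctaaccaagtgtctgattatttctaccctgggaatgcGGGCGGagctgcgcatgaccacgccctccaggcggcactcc
Hdac6, chrX:7947890-7948139, minus strand: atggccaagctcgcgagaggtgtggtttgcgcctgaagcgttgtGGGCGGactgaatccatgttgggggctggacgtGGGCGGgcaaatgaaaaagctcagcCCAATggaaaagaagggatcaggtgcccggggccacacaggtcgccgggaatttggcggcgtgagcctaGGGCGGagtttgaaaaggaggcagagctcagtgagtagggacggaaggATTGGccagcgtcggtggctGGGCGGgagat
Hdac2, chr10:36974294-36974543, plus strand: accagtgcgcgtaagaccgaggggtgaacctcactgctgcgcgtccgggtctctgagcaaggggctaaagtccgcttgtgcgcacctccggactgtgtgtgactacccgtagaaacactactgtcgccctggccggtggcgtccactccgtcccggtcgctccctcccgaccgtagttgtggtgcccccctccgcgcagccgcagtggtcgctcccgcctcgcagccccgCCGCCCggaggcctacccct
In the 250 bases before the RefSeq start, the GC box GGGCGG occurred 4 times in Hdac6, once in Hdac2 and once in Hdac11, and not in Hdac8. It occurred in 32.7% of 32851 promoters. CCAAT occurred 2 times in Hdac6, 2 times in Hdac8 and 1 time in Hdac11 (33.8% of promoters). TATAAA was found only in Hdac8 of the 4 (12.4% of promoters), and TGACG, the core of the cyclic AMP response element, only in Hdac11 (17.8%). The CCAAT and TGACG matches of Hdac11 lie outside the stretch shown, which ends just before the start of the gene in the GENCODE M21 annotation. By that annotation these matches reach into the gene. No matches overlap in the stretches shown. A match describes the letters of the window only.

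The genes lie on 6 chromosomes in GRCm38 (GENCODE M21 annotation, whole gene spans with exons and introns). Hdac1 lies on chr4:129516104-129542713 (minus strand), Hdac2 on chr10:36974544-37001889 (plus), Hdac3 on chr18:37935844-37955016 (minus), Hdac10 on chr15:89123307-89128700 (minus) and Hdac11 on chr6:91156665-91174692 (plus). Hdac6 on chrX:7930120-7947889 (minus) and Hdac8 on chrX:102284639-102505359 (minus) share a chromosome. Of the 31-base words of Hdac1, 40.0% also occur in other genes, 34.8% in the pseudogene Gm10093, so its reads could have been divided. Gm10093 itself held 0 to 0.451 CPM. The other 6 members shared at most 0.554% of their words. Reads estimated from the spacing of low CPM were whole for these 6 in every library. For Hdac1 they were not whole in most libraries, such as 315.67 in osimertinib library 1. How Hdac1 reads were divided was not tested. Hdac11 is overlapped on the opposite strand over 96 exonic bases by Gm14573, listed at 0 CPM in all libraries, and over 594 exonic bases by Gm44002.

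Levels were compared between genes per kilobase of exon. Hdac3 was the highest of the 7 with 6.41 ± 0.77 rescaled CPM per kilobase in osimertinib libraries and 6.36 ± 0.86 in placebo libraries (SD, n = 5 each, as for all means below). Hdac1 had 4.89 ± 0.54 with osimertinib and 6.14 ± 1.15 with placebo, and Hdac2 had 5.43 ± 0.26 with osimertinib and 4.84 ± 0.26 with placebo. With osimertinib the libraries of these 3 class I genes overlapped, while with placebo Hdac3 (5.18 to 7.34) lay just above Hdac2 (4.52 to 5.17) and Hdac1 overlapped both. Hdac10 had 3.77 ± 0.75 per kilobase with osimertinib and 5.70 ± 0.64 with placebo, and Hdac6 had 2.89 ± 0.19 with osimertinib and 4.07 ± 0.27 with placebo. Hdac11 followed with 2.02 ± 0.43 with osimertinib and 1.24 ± 0.44 with placebo. Hdac8 came last with 0.31 ± 0.06 with osimertinib and 0.29 ± 0.10 with placebo.

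The bottom of this order was the same in every library, with Hdac6 at rank 5, Hdac11 at rank 6 and Hdac8 at rank 7 in 10 of 10. Its upper part differed between the groups. Hdac10 took rank 4 in 5 of 5 osimertinib libraries and rank 2 or 3 in placebo libraries, while Hdac2 took rank 1 to 3 in osimertinib libraries and rank 4 in 5 of 5 placebo libraries. Of the summed level per kilobase of the 7 genes, class IIb made up 22.9% to 30.4% in osimertinib libraries and 32.2% to 37.7% in placebo libraries. The share of class IV was 6.09% to 9.10% with osimertinib and 2.95% to 6.07% with placebo, and that of class I was 63.0% to 68.0% with osimertinib and 58.7% to 63.9% with placebo. These shares within a library do not depend on scaling, and they were not tested. They are built from the levels of the single genes, so they add no separate result. How often shares of other sets of genes differ this much between the groups was not counted.

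**Figure D1:**
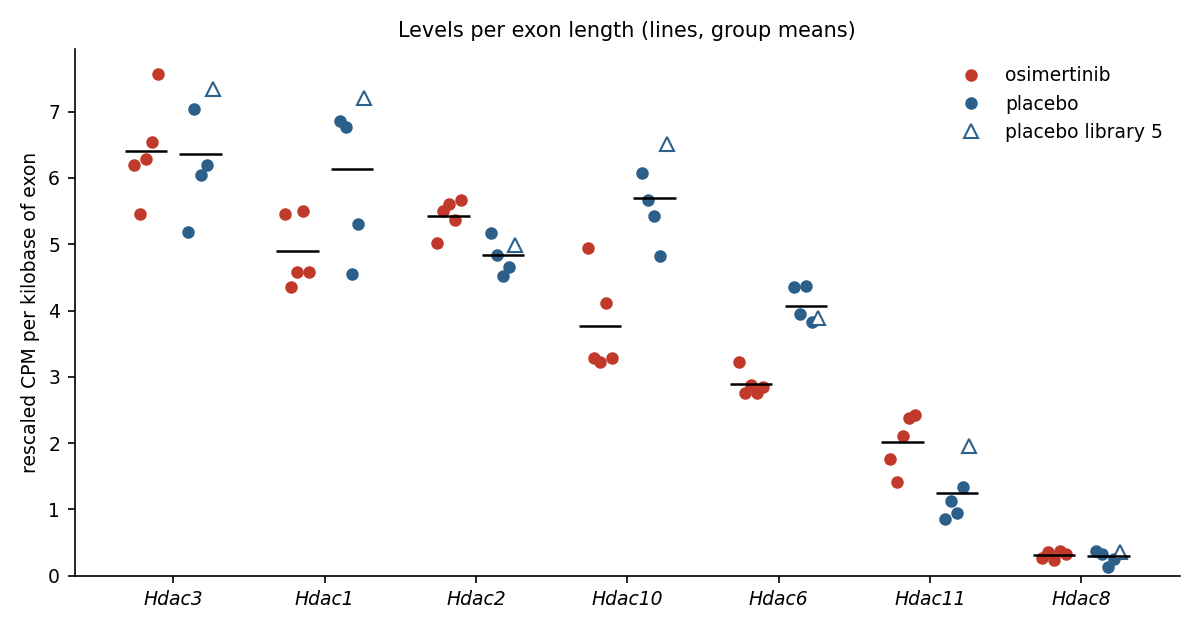
Rescaled CPM per kilobase of exon of each of the 7 deacetylase genes, ordered by mean level, with osimertinib libraries in red to the left and placebo libraries in blue to the right. Each point is a library, the open triangle is placebo library 5 and lines are group means. Hdac6 and Hdac10 sit lower with osimertinib and Hdac8 is close to 0 throughout.

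Hdac6, the tubulin and cortactin deacetylase, fell in rescaled CPM. Its rescaled level was 18.8, 16.1, 16.7, 16.03 and 16.5 CPM in osimertinib libraries 1 to 5, against 25.3, 22.9, 25.4, 22.2 and 22.6 CPM in placebo libraries 1 to 5. The groups did not overlap (6.82% of tested genes were lower without overlap on this scale), and placebo library 5 lay within the range of the other placebo libraries. The mean was 16.8 ± 1.13 CPM with osimertinib and 23.7 ± 1.54 CPM with placebo. On the log2(CPM + 0.5) scale, which all fold changes here use, it fell by 0.48 ± 0.09 (SE, limma adjusted p = 0.0132). The call held without placebo library 5, with a fold change of -0.50 ± 0.09 (limma adjusted p = 0.0157) and no overlap (9.73% of genes lower without overlap in that fit), and in each of the 20 alternatives tried on the rescaled scale, that one included.

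In deposited CPM Hdac6 had 18.4, 19.6, 19.3, 19.0 and 17.0 CPM in osimertinib libraries, against 26.7, 30.8, 26.5, 20.6 and 10.3 CPM in placebo libraries. The osimertinib libraries were close together and the placebo libraries spread around them, with library 5 below and libraries 1 to 4 above. The fold change was -0.21 ± 0.31 (limma adjusted p = 0.762). Leaving out 1 placebo library moved it, to -0.46 ± 0.16 without library 5 (limma adjusted p = 0.0794) and to -0.08 ± 0.30 without library 2 (limma adjusted p = 0.876).

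Hdac10, the polyamine deacetylase, fell in rescaled CPM too. It had 16.7, 11.1, 10.9, 13.9 and 11.1 rescaled CPM in osimertinib libraries, against 20.5, 19.1, 18.3, 16.3 and 21.99 in placebo libraries. Osimertinib library 1 lay just above placebo library 4, so the groups overlapped, while 5 of 5 osimertinib libraries were below the placebo mean. The mean was 12.7 ± 2.54 rescaled CPM with osimertinib and 19.3 ± 2.15 with placebo, a log2 fold change of -0.59 ± 0.14 (limma adjusted p = 0.0181). Without placebo library 5 it was -0.55 ± 0.14 (limma adjusted p = 0.0299), and without osimertinib library 3 the adjusted p was 0.0555 (limma).

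In deposited CPM Hdac10 had 16.4, 13.6, 12.6, 16.5 and 11.4 CPM in osimertinib libraries, against 21.7, 25.7, 19.1, 15.1 and 10.00 CPM in placebo libraries. As with Hdac6, placebo library 5 was the lowest of all 10. The fold change was -0.32 ± 0.31 (limma adjusted p = 0.599). It was -0.51 ± 0.19 without placebo library 5 (limma adjusted p = 0.0885) and -0.18 ± 0.29 without placebo library 2 (limma adjusted p = 0.686).

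Hdac11, the fatty deacylase and the only class IV member, rose on both scales. In deposited CPM it had 6.66, 6.62, 9.35, 10.9 and 9.59 CPM in osimertinib libraries, against 3.45, 5.80, 3.81, 4.79 and 3.43 CPM in placebo libraries. The groups did not overlap, where 5.33% of tested genes were higher without overlap in deposited CPM. The mean was 8.62 ± 1.89 CPM with osimertinib and 4.26 ± 1.03 CPM with placebo, a log2 fold change of 0.94 ± 0.30 (limma adjusted p = 0.0379).

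In rescaled CPM Hdac11 had 6.79, 5.42, 8.10, 9.17 and 9.35 in osimertinib libraries, against 3.27, 4.31, 3.65, 5.18 and 7.54 in placebo libraries. Here placebo library 5 lay among the osimertinib libraries and the other 4 placebo libraries lay below all of them. The mean was 7.77 ± 1.66 rescaled CPM with osimertinib and 4.79 ± 1.70 with placebo, a log2 fold change of 0.67 ± 0.21 (limma adjusted p = 0.0421). Without placebo library 5 the means were 8.47 ± 1.80 with osimertinib and 4.48 ± 0.92 with placebo (n = 5 and 4 libraries), with a fold change of 0.84 ± 0.18 (limma adjusted p = 0.0189) and no overlap, where 8.44% of tested genes were higher without overlap.

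The Hdac11 call depended on single libraries and on the processing. In deposited CPM it was lost without osimertinib library 2, 3, 4 or 5 or placebo library 1, 3 or 4, with a limma adjusted p of at most 0.139. In rescaled CPM it was lost without osimertinib library 3, 4 or 5 or placebo library 1, 2 or 3, with an adjusted p of at most 0.107 (limma). Over all fits that left out a library, whether or not the call was lost, the fold change lay between 0.85 and 1.05 deposited and between 0.56 and 0.84 rescaled. With all libraries kept, the deposited call was also lost without mitochondrial and haemoglobin reads, where the fold change was 0.52 ± 0.22 (limma adjusted p = 0.105), with no filter on low values (limma adjusted p = 0.167) and with voom on estimated reads (1.02 ± 0.32, limma adjusted p = 0.0507). The rescaled call was also lost with no filter (limma adjusted p = 0.0833).

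**Figure D2:**
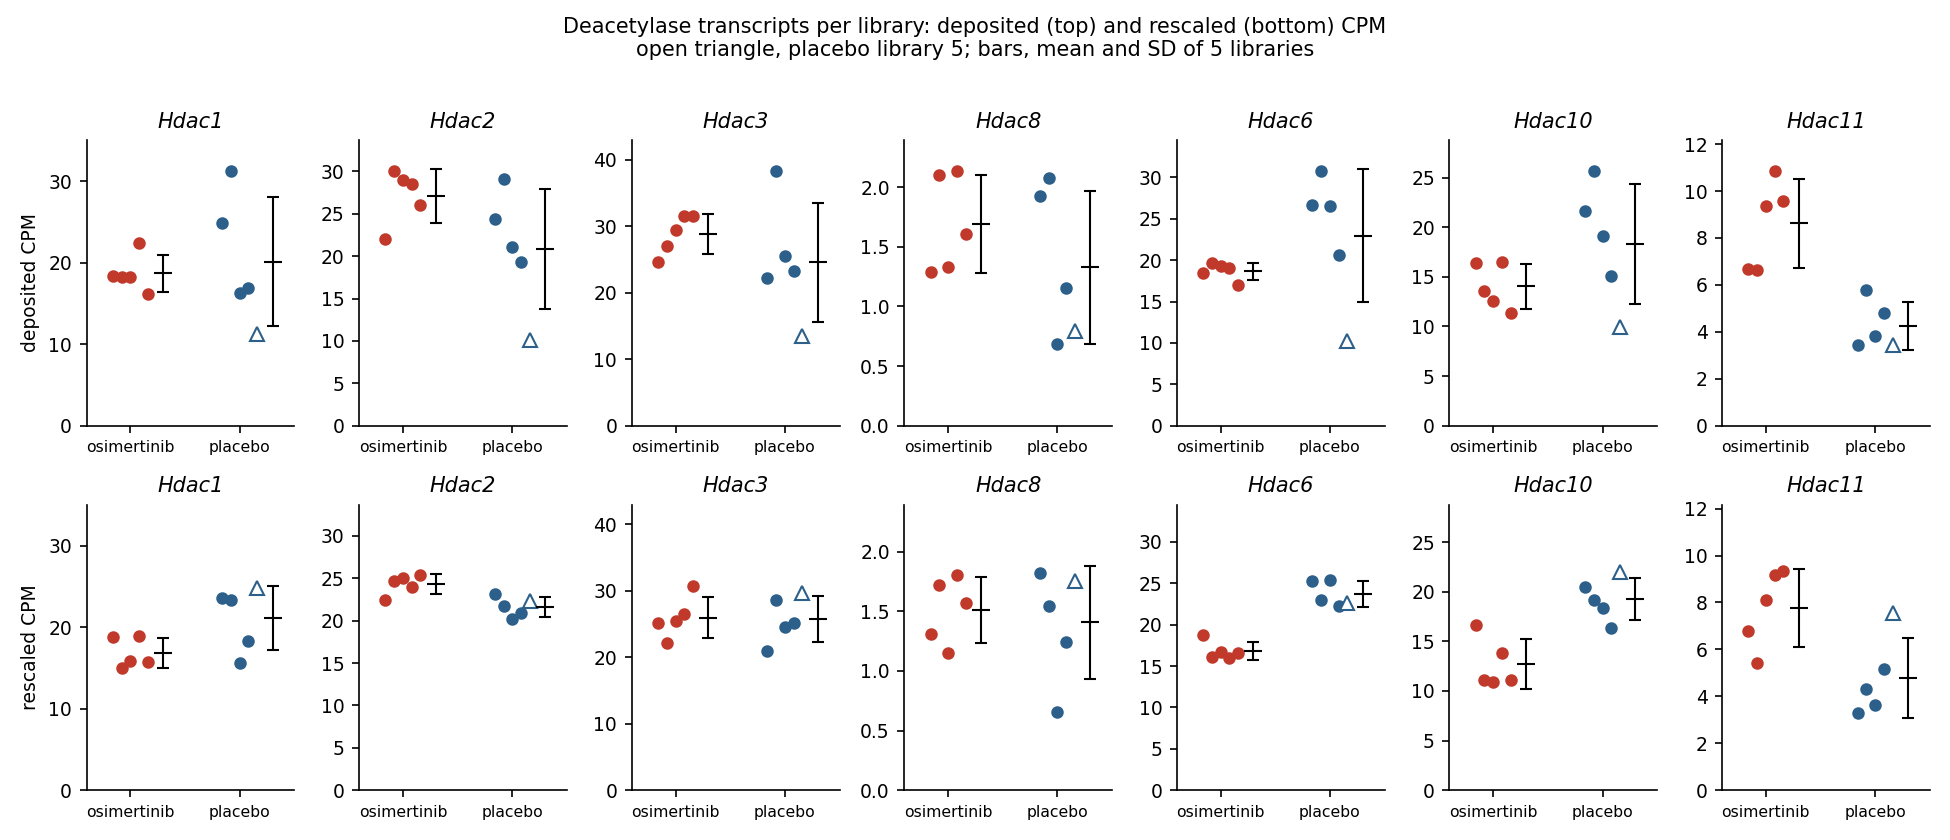
CPM of the 7 genes per library, deposited in the upper row and rescaled in the lower row, with osimertinib to the left of placebo in each panel. Points are libraries, the open triangle is placebo library 5, and bars are mean and SD of 5 libraries. Rescaling moves placebo library 5 up into the placebo range for Hdac6 and up into the osimertinib range for Hdac11.

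Among the class I genes, Hdac1 came closest to the threshold in rescaled CPM. It had 18.8, 14.98, 15.8, 18.9 and 15.8 rescaled CPM in osimertinib libraries, against 23.6, 23.3, 15.7, 18.3 and 24.8 in placebo libraries. Placebo libraries 3 and 4 lay within the osimertinib range and the other 3 above it. The mean was 16.9 ± 1.87 with osimertinib and 21.1 ± 3.96 with placebo, a log2 fold change of -0.30 ± 0.14 (95% interval -0.61 to -0.00, limma adjusted p = 0.129). Without placebo library 3 alone it passed, at -0.40 (limma adjusted p = 0.0398). In deposited CPM the means were 18.7 ± 2.29 with osimertinib (16.2 to 22.5) and 20.2 ± 7.93 with placebo (11.3 to 31.3), with a fold change of -0.03 ± 0.31 (limma adjusted p = 0.973). Its sign was not stable, with -0.21 without placebo library 5 and 0.15 without placebo library 2.

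Its paralog Hdac2 had values on the other side of 0. Hdac2 had 22.5, 24.6, 25.1, 24.0 and 25.3 rescaled CPM in osimertinib libraries, against 23.1, 21.7, 20.2, 20.8 and 22.3 in placebo libraries. Only osimertinib library 1 fell inside the placebo range. The log2 fold change was 0.16 ± 0.09 (95% interval -0.02 to 0.35, limma adjusted p = 0.182). In deposited CPM it was 0.44 ± 0.31 (limma adjusted p = 0.437), with 27.1 ± 3.20 CPM with osimertinib (22.03 to 30.1) and 20.8 ± 7.04 CPM with placebo (10.1 to 29.1). The deposited fold change without placebo library 5 was 0.21 ± 0.17 (limma adjusted p = 0.439). The difference in response between the paralogs was not tested.

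For Hdac3, the catalytic subunit of the NCoR complex, the rescaled means lay close together. They were 26.0 ± 3.11 CPM with osimertinib (22.1 to 30.7) and 25.8 ± 3.48 CPM with placebo (20.99 to 29.7). The log2 fold change was 0.01 ± 0.12, and its 95% interval of -0.25 to 0.28 bounds the difference this comparison leaves possible (limma adjusted p = 0.947). In deposited CPM the means were 28.8 ± 2.99 with osimertinib (24.6 to 31.5) and 24.6 ± 8.97 with placebo (13.5 to 38.4), with a fold change of 0.29 ± 0.31 (limma adjusted p = 0.642). It was 0.10 ± 0.18 without placebo library 5 (limma adjusted p = 0.752) and 0.47 ± 0.29 without placebo library 2 (limma adjusted p = 0.271).

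Hdac8, the cohesin deacetylase, had few reads, 22 to 36 reads in osimertinib libraries and 13 to 39 reads in placebo libraries. It reached 1 CPM in 5 osimertinib and 3 placebo libraries. Its rescaled level was 1.31, 1.72, 1.15, 1.80 and 1.57 CPM with osimertinib, against 1.82, 1.55, 0.659, 1.25 and 1.76 CPM with placebo, and the groups overlapped. The fold change was 0.11 ± 0.21 rescaled (limma adjusted p = 0.735) and 0.31 ± 0.31 deposited (limma adjusted p = 0.602). In deposited CPM its libraries held 1.29 to 2.14 CPM with osimertinib and 0.687 to 2.08 CPM with placebo. The 95% interval of the rescaled fold change, -0.35 to 0.57, was the widest of the class I genes. The deposited fold change was 0.21 ± 0.27 without placebo library 5 (limma adjusted p = 0.643).

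**Figure D3:**
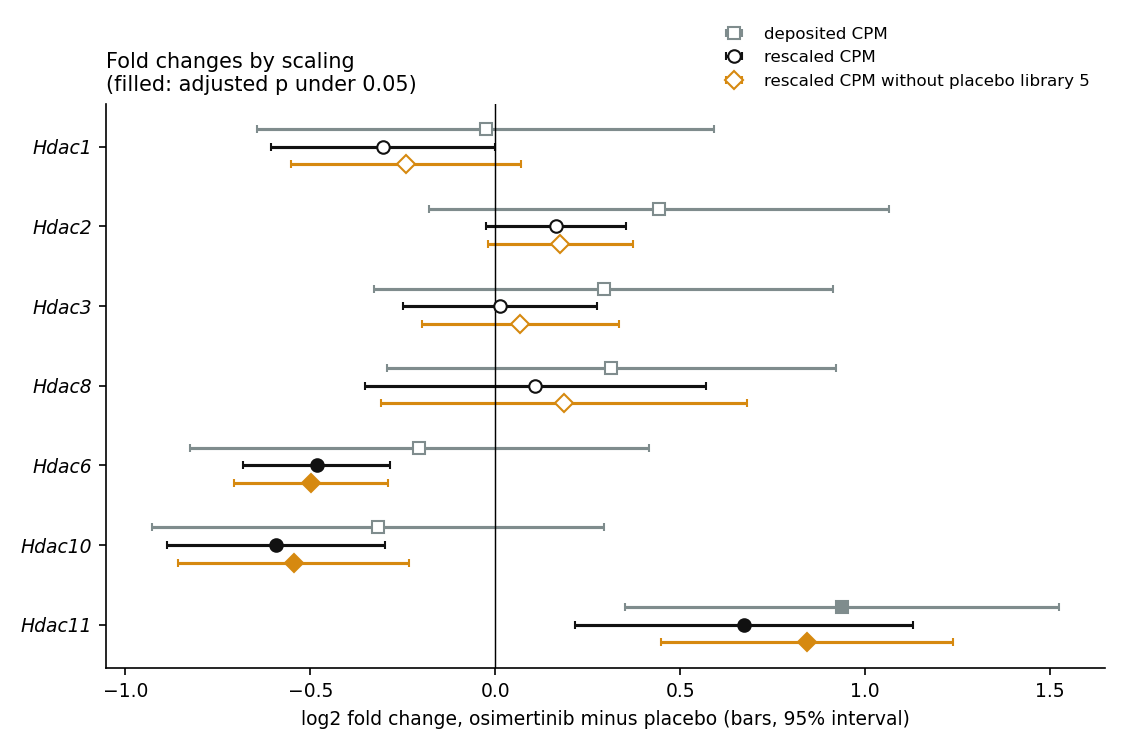
Log2 fold change (osimertinib minus placebo) of each member with its 95% interval, in deposited CPM (grey squares), rescaled CPM (black circles) and rescaled CPM without placebo library 5 (orange diamonds). Filled symbols passed the adjusted threshold of 0.05. Hdac6 and Hdac10 are filled on the rescaled scale with and without placebo library 5, and Hdac11 is filled in all 3.

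Ratios of 2 members within a library do not depend on any scaling between libraries. Of the 21 pairs, 6 had ratios that did not overlap between the groups, and 7 without placebo library 5, where 11.1% and 16.2% of all pairs of tested genes did not overlap. Hdac2 over Hdac6 was 1.197 to 1.53 in osimertinib libraries and 0.795 to 0.986 in placebo libraries. This ratio of CPM was 1.58-fold higher with osimertinib (ratio of geometric means). The CPM are not corrected for exon length, and per kilobase of exon Hdac2 exceeded Hdac6 in every library of both groups. Hdac2 over Hdac10 was 1.35 to 2.30 with osimertinib and 1.01 to 1.28 with placebo, and Hdac3 over Hdac6 was 1.34 to 1.86 with osimertinib and 0.830 to 1.32 with placebo.

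The other 3 pairs had Hdac11 as denominator. Hdac6 over Hdac11 was 1.75 to 2.96 with osimertinib and 3.00 to 7.73 with placebo, Hdac10 over Hdac11 was 1.18 to 2.46 with osimertinib and 2.92 to 6.27 with placebo, and Hdac1 over Hdac11 was 1.69 to 2.77 with osimertinib and 3.29 to 7.22 with placebo. In each of the 3 the gap between the groups was set by placebo library 5, the lowest placebo library. Set against each of 12309 other tested genes, the ratio of Hdac6 was lower with osimertinib without overlap for 36.5% and higher for 0.13%. For Hdac10 these shares were 24.5% lower and 0.089% higher, and for Hdac11 0.008% lower and 12.6% higher. A ratio shows unequal change of its 2 genes and not which of them changed.

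**Figure D4:**
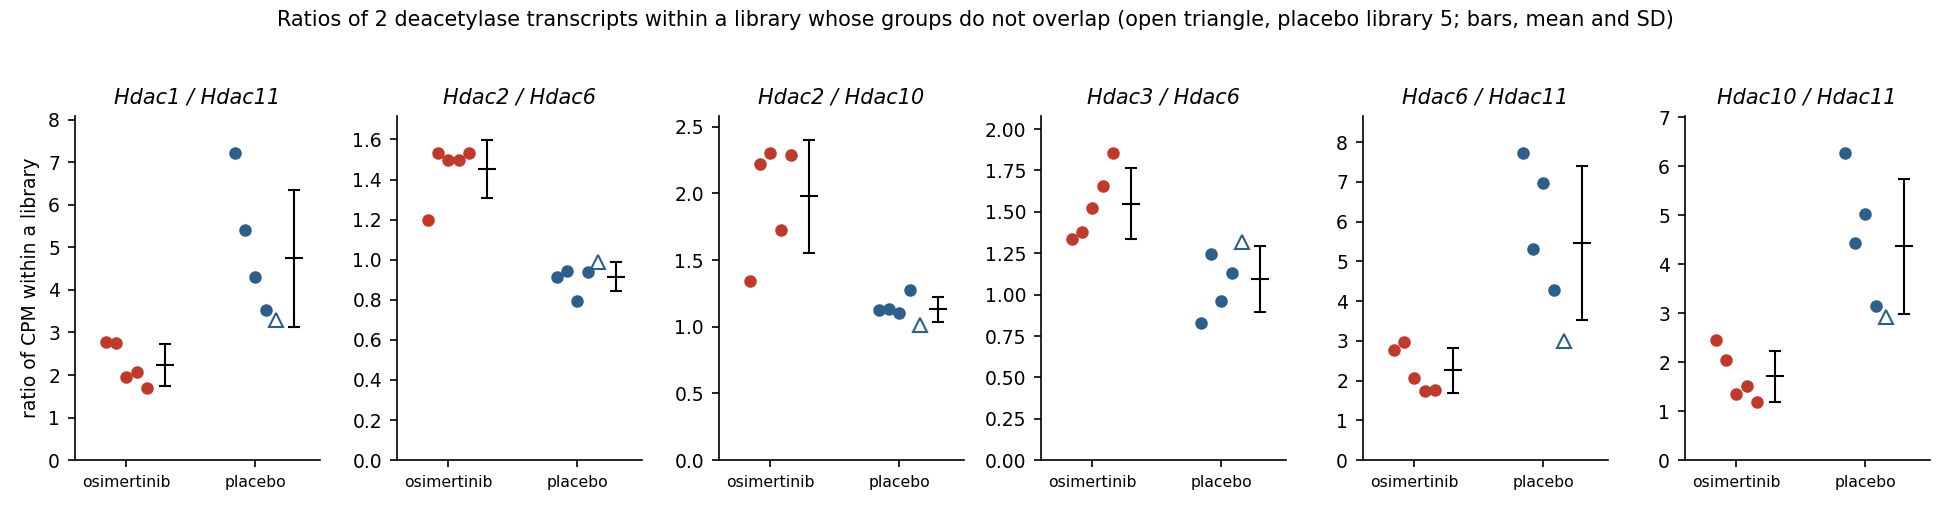
Within-library ratios of CPM for the 6 pairs of members whose groups do not overlap, osimertinib to the left of placebo. Points are libraries, the open triangle is placebo library 5, and bars are mean and SD of 5 libraries. Hdac2 over Hdac6 lies above 1 in all osimertinib libraries and below 1 in all placebo libraries. The ratios are not corrected for exon length, and per kilobase of exon Hdac2 exceeded Hdac6 in every library.

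Subunits of the complexes that hold class I deacetylases were counted on the rescaled scale, where 10.4% of tested genes were called higher and 10.5% lower. Of 15 Sin3 complex genes, 2 were called higher and 0 lower, with a list median of -0.05 beside 0.01 over all tested genes. Rbbp7, a histone-binding subunit shared by Sin3 and NuRD, rose to 46.3 ± 9.68 CPM with osimertinib, against 27.3 ± 2.37 CPM with placebo (0.73 ± 0.14, limma adjusted p = 0.0132). Sap30, a Sin3 scaffold subunit, had 5.22 ± 1.11 CPM with osimertinib and 3.16 ± 1.18 CPM with placebo (0.68 ± 0.22, limma adjusted p = 0.0448). Both were also called in deposited CPM (limma adjusted p = 0.0400 for Rbbp7 and 0.0433 for Sap30). Without placebo library 5, 3 Sin3 genes were called higher and 1 lower, where 8.35% of tested genes were called higher and 9.7% lower.

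Of 11 NuRD genes, 1 was called higher (Rbbp7) and 1 lower, with a median of 0.07. Chd4, the chromatin remodeller of NuRD, had 94.9 ± 8.69 CPM with osimertinib and 123.6 ± 13.6 CPM with placebo (-0.38 ± 0.11, limma adjusted p = 0.0375), and without placebo library 5 -0.33 ± 0.11 (limma adjusted p = 0.0605). Among 6 CoREST genes 0 were called higher and 1 lower, with a median of -0.07. It was Hmg20b, which encodes an HMG-box subunit (-0.56 ± 0.11, limma adjusted p = 0.0141).

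Of 4 NCoR complex genes 1 was called higher and 0 lower, with a median of -0.06. Tbl1xr1, which exchanges corepressors for coactivators, rose to 11.9 ± 1.74 CPM with osimertinib, against 7.90 ± 0.66 CPM with placebo (0.55 ± 0.12, limma adjusted p = 0.0157). None of the 3 MiDAC genes was called by limma, with a median of 0.05. In deposited CPM no CoREST, NCoR or MiDAC gene was called, and 1 NuRD gene, Rbbp7, was called higher.

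Among substrates and opposing enzymes, 14 of 15 genes were tested (not Esco2), and 1 was called higher and 2 lower, with a median of 0.08. Sqstm1, the p62 receptor of ubiquitinated cargo, rose to 215.8 ± 47.6 CPM with osimertinib, against 141.1 ± 23.7 CPM with placebo (0.60 ± 0.17, limma adjusted p = 0.0305). Esco1, an acetyltransferase of SMC3, fell by 0.39 ± 0.11 (limma adjusted p = 0.0330) and Cttn, the HDAC6 substrate cortactin, fell by 0.33 ± 0.11 (limma adjusted p = 0.0476). Without placebo library 5 Sqstm1 was still called, and the values were -0.37 ± 0.12 for Esco1 (limma adjusted p = 0.0504) and -0.28 ± 0.11 for Cttn (limma adjusted p = 0.0811).

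Of 6 genes known to be repressed by class I deacetylases, 0 were called higher and 1 lower, with a median of -0.21. Klf4, a transcription factor, had 35.2 ± 6.82 CPM with osimertinib and 59.9 ± 16.5 CPM with placebo (-0.74 ± 0.19, limma adjusted p = 0.0248). Of the 4 class IIa deacetylases, which repress MEF2 target genes, Hdac7 had 80.9 ± 9.13 CPM with osimertinib and 109.5 ± 12.7 CPM with placebo (-0.43 ± 0.12, limma adjusted p = 0.0287), and Hdac4, Hdac5 and Hdac9 were not called. The list median was -0.19. In deposited CPM no gene of these 3 lists was called.

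**Figure D5:**
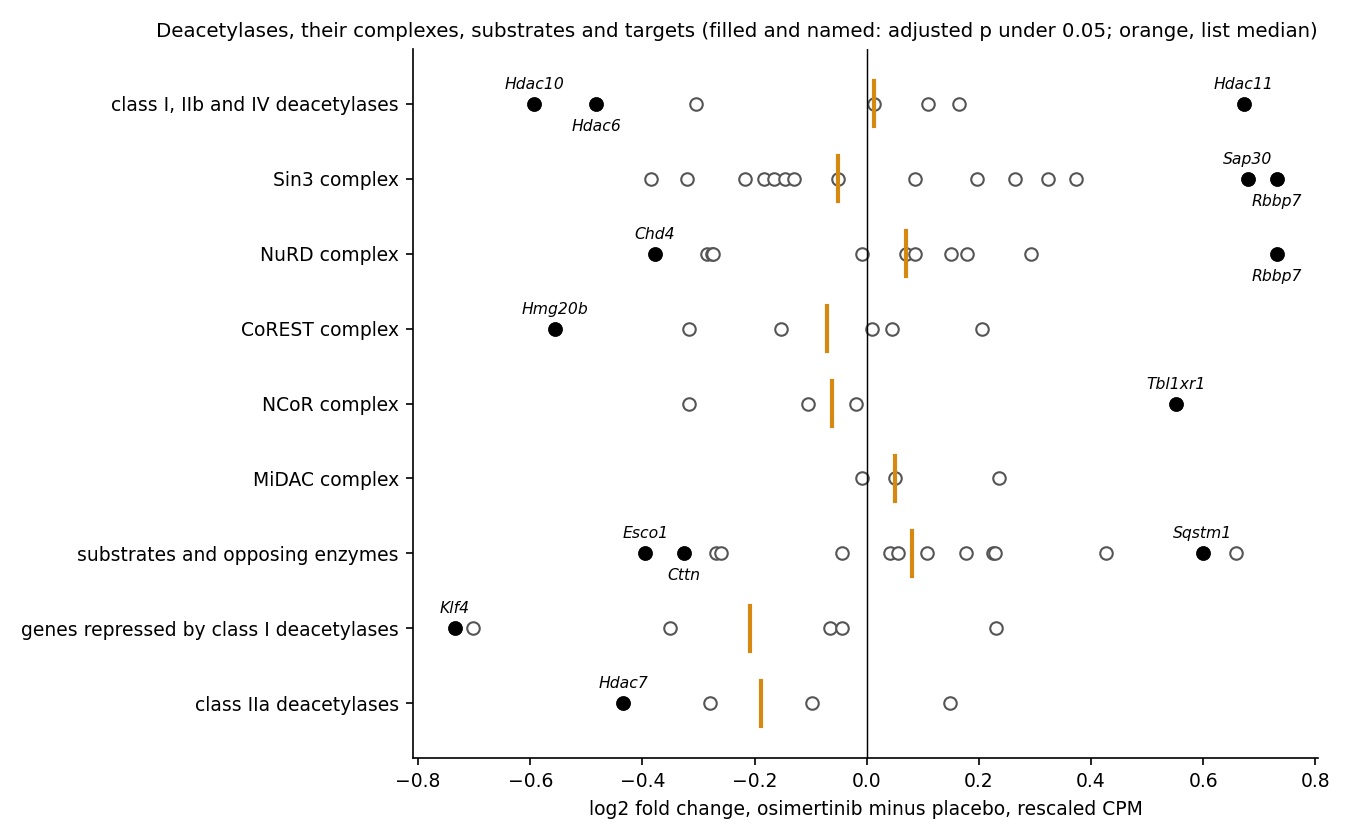
Log2 fold change (osimertinib minus placebo, rescaled CPM) of each tested gene of the deacetylases, their complexes, substrates, repressed genes and class IIa relatives, a point per gene. Filled and named points passed the adjusted threshold of 0.05 and orange lines are list medians. In 8 of the 9 lists at least 1 gene passed, with Rbbp7 standing in both the Sin3 and NuRD lists. Per gene, 10.4% of all tested genes were called higher and 10.5% lower. How many lists of other genes would hold a call was not counted. The list medians lie between -0.21 and 0.08.

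Cell markers were summed for each library, and in rescaled CPM the groups overlapped for each of the lists given here. On the rescaled scale 10.4% of tested genes were called higher and 10.5% lower. List medians of the log2 fold change were 0.74 for cardiomyocyte, -0.17 for endothelial and 0.35 for macrophage markers, beside 0.01 over all tested genes. Those of fibroblast, mural cell, atrial and erythroid markers were 0.33, 0.26, 0.95 and -0.35. The summed rescaled level of 8 cardiomyocyte markers was 25849 to 42724 CPM in osimertinib libraries and 13634 to 31568 CPM in placebo libraries, and 1 of 8 (Actn2) was called higher. For 8 endothelial markers the sums were 1236 to 1525 CPM with osimertinib and 1318 to 2019 CPM with placebo, and 2 (Tie1 and Egfl7) were called lower. For 7 macrophage markers they were 202 to 275 CPM with osimertinib and 141 to 210 CPM with placebo, and 2 (Adgre1 and Lyz2) were called higher. Egfl7, Adgre1 and Lyz2 were still called without placebo library 5, and the fold changes were 0.93 ± 0.30 for Actn2 (limma adjusted p = 0.0534) and -0.35 ± 0.12 for Tie1 (limma adjusted p = 0.0665). In deposited CPM, where 6.62% of tested genes were called higher, 4 of 8 cardiomyocyte markers (Tnnt2, Actn2, Myl2 and Myl3) and 2 of 5 tested atrial markers (Nppa and Dkk3) were called higher, and no endothelial or macrophage marker was called. The deposited sums of cardiomyocyte markers were 25341 to 43835 CPM with osimertinib and 8405 to 30093 CPM with placebo, and those of atrial markers 708 to 5393 CPM with osimertinib and 457 to 1456 CPM with placebo. Those of macrophage markers, 233 to 326 CPM with osimertinib and 94.5 to 219 CPM with placebo, did not overlap. Of single tested genes, 5.33% were higher without overlap in deposited CPM. How often sums of other sets of genes do so was not counted. Fibroblast, mural cell, atrial and erythroid markers had no call by limma in rescaled CPM, and lymphocyte markers summed to 1.904 to 4.27 CPM with osimertinib and 1.34 to 3.94 CPM with placebo. In whole tissue, fewer cells of a type and less RNA per cell cannot be told apart, and the part of these markers, of the mitochondrial share and of the Xist and Y-linked difference in the deacetylase results was not tested.

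The genes whose rescaled profiles over the 10 libraries were most like those of the members were found by the mean absolute difference of centred log2 values among 9047 genes, where a smaller difference means a closer profile. For Hdac6 they were Rhog (0.052), Tecpr1 (0.063) and Tpst2 (0.069). For Hdac10 they were Rnf215 (0.045), Eps15l1 (0.059) and Ifitm3 (0.062). For Hdac11 they were Cirbp (0.090), St6galnac6 (0.11) and Fbxo44 (0.12). The differences are read against each member's own mean absolute deviation over the libraries, which was 0.24 for Hdac6, 0.32 for Hdac10 and 0.42 for Hdac11. Among class I genes the nearest profile was Fryl for Hdac1 (0.045), Tmem59 for Hdac2 (0.033), Napa for Hdac3 (0.063) and Smc3 for Hdac8 (0.095), the last resting on few Hdac8 reads.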

How the data were processed

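The authors deposited CPM, 1 value per gene and library, for 10 libraries. Per the labels' protocols, 5 ug of total RNA was selected for poly(A) tails. The design text names STAR, RSEM and limma with voom on GRCm38, while the submitters' processing notes name cutadapt 1.9, HISAT2 2.0.4, StringTie 1.3.4d, DESeq2 and hg38. Of the gene IDs, 98.8% matched GENCODE M21. The spacing of low CPM gave depths of 15863265 to 21309296 reads. Whole reads (tolerance 0.01, values under 200 reads) made up 90.7% to 93.4%, too few for a count test.

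Genes were tested with limma 3.58.1 (R 4.3.3, intensity trend, two-sided) on log2(CPM + 0.5), with Benjamini-Hochberg adjustment over all tested genes and calls at 0.05. This scale understates changes of low genes. Both scalings used the same filter. The prior degrees of freedom of the variance were 72.9 for deposited and 4.45 for rescaled CPM, so deposited SEs mostly reflect all genes. Every pair of libraries of a group differed by more than counting noise (chi-square over its degrees of freedom, at least 23.9). The script was checked on simulated data.

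All 7 members are named, with up to 4 called genes of each partner list and the 3 nearest profiles. Some genes of the partner lists are not reported here, and counts and medians leave them out. The members and lists were chosen with earlier results of these data known. Fits varied the pseudocount, filter, scaling, variance model, replicate block and libraries. The counts without placebo library 5 for lists and ratios were added after seeing the data.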

Additional observations from a re-analysis of the deposited data

Results flagged for a closer look

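Of 56 groups of 5 libraries checked, 3 held a library far from the other 4, and chance alone flags about 1 group in 20. In rescaled CPM, Hdac6 had 18.8 CPM in osimertinib library 1 and 16.03 to 16.7 CPM in the other osimertinib libraries, still below every placebo library. Xist had 68.0 CPM in placebo library 5 and 0 to 0.0607 CPM in the other placebo libraries. The 4 Y-linked genes summed to 0 CPM in placebo library 5 and to 71.5 to 138 CPM in the other placebo libraries. The labels give no sex for any sample.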

How the results depend on the processing

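Hdac6 and Hdac10 were called lower in rescaled CPM under every alternative that kept all libraries. In deposited CPM both were called lower, 2 members against 0, with quantile normalization and without mitochondrial and haemoglobin reads. Quantile normalization replaces either scaling, so the same fit stands under both scales. Without mitochondrial and haemoglobin reads the median log2 fold change of all tested genes was -0.17. Members called higher in deposited CPM came to 0 with no filter on low values, without mitochondrial and haemoglobin reads and with voom on estimated reads (limma adjusted p of Hdac11 0.167, 0.105 and 0.0507), and in rescaled CPM to 0 with no filter. With no filter limma called 0 of 21622 genes in deposited CPM (3269 at an unadjusted p under 0.05). Over all genes limma called 817 higher and 16 lower in deposited CPM, against 1224 and 1430 with quantile normalization, 670 and 1730 without mitochondrial and haemoglobin reads, 2159 and 420 with array weights, 589 and 9 with voom and 296 to 1142 and 5 to 257 on leaving out libraries. In rescaled CPM it called 1283 higher and 1291 lower, against 529 and 698 with no filter and 216 to 1547 and 301 to 1371 on leaving out libraries. Leaving out each library gave 0 to 1 members called higher on either scale and 1 to 3 called lower in rescaled CPM. Signs turned only for members that were not called. In deposited CPM these were Hdac1 on leaving out libraries (-0.21 to 0.15), Hdac2 (-0.029), Hdac3 (-0.18) and Hdac8 (-0.037) without mitochondrial and haemoglobin reads, and Hdac3 with quantile normalization (-0.012). In rescaled CPM they were Hdac3 with quantile normalization (-0.012), with array weights (-0.013) and on leaving out libraries (-0.058 to 0.068), and Hdac8 on leaving out libraries (-0.061 to 0.19). The cause was not tested.

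Deviations of same-numbered libraries correlated at 0.43, 0.24 and 0.46 for numbers 1 to 3 and at -0.34 and -0.16 for numbers 4 and 5, and 2 of the 5 osimertinib libraries (1 and 3) correlated best with their own number. Not every pair was over 0.1, so the numbers were not taken as pairs. With the replicate block the members called were 1 higher and 0 lower deposited and 1 higher and 2 lower rescaled, as without it. Over all genes the block called 1286 higher and 34 lower deposited, against 817 and 16 without it, and 1594 higher and 1355 lower rescaled, against 1283 and 1291. The variance prior was infinite in the deposited block fit and in 8 of 10 deposited fits that leave out a library. Hdac8 had the fewest reads of the members, 13 to 39 per library.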
